A study of Mus musculus with 12 samples.

Results

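Hox genes encode homeodomain transcription factors that lie in clusters and are switched on along the body axis in roughly the order in which they lie on the chromosome, so that genes at the 3′ end of a cluster act in more anterior tissue than those at the 5′ end. In the developing lung the 3′ and middle Hoxa genes are expressed mainly in the mesenchyme, and Hoxa5 is needed there for normal branching and airway patterning. The Hoxa cluster also makes noncoding transcripts, among them Hotairm1 at its 3′ end, and Skap2, which encodes an adaptor protein of Src-family kinase signalling, is the coding gene next to that end. Described here are 8 genes of this region, named by symbol and matched by Ensembl ID, out of 31078 genes in the count table: Hoxa2, Hoxa3, Hoxa4, Hoxa5, Hoxa6, Hoxa7, Hotairm1 and Skap2. All 8 were among the 9519 genes with enough counts to be tested. They were chosen because several of them differed between left and right lung in these same libraries, so their left-right values are given as a description without a test. The average difference between genotypes was not used in that choice and was tested.

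The RNA came from embryonic mouse lungs (day 12.5 of gestation, C57BL/6), the parents being carriers of an Intu knockout allele. Intu encodes a protein needed to build primary cilia, the organelle through which Hedgehog signals are read. The 4 groups of 3 libraries each were wild-type left lung, wild-type right lung, Intu-knockout left lung and Intu-knockout right lung. The labels do not say how the allele was made, which sex the embryos had or whether lungs were pooled, and nothing in them ties each library of a group to an embryo of its own. The p-values therefore reflect the spread among these libraries alone, and that spread may be technical. Left and right libraries of one genotype that carry the same number are called a pair below, because they deviated from their group means together. Levels are given in CPM, counts scaled to the size of the part of each library that the table covers (chromosomes 1 to 7, 10, X and part of 8), which held 10290103 to 10753386 counts.

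The genotype labels were checked on genes outside the Hoxa region, and the side labels were not checked here. The highest Gli1 level, a direct readout of Hedgehog signalling, was 186 CPM in the knockout libraries, and the lowest in wild type was 345 CPM, whereas the summed count of Intu overlapped between genotypes (26.2 to 31.4 CPM in the knockout and 28.2 to 34.0 CPM in wild type), so that this gene did not separate the labels. The 5 lung mesenchyme markers in the table had a summed level of 4078 ± 145 CPM in wild-type left, 4105 ± 37.3 in wild-type right, 4493 ± 134 in knockout left and 4595 ± 286 CPM in knockout right lung (SD, n = 3 each), and most of it was the collagen gene Col3a1 (2894 CPM in wild-type left lung). Xist, the RNA of the inactive X chromosome, ranged from 1271 to 2269 CPM in wild type and from 107 to 985 CPM in the knockout libraries. These ranges did not overlap. Whatever goes with Xist, such as the sex of the embryos, can therefore not be told apart from genotype in these libraries, and its part was not tested. These are bulk samples, in which fewer cells of a type and less RNA per cell cannot be told apart.

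All 8 genes lie on chromosome 6 (GRCm38). In chromosomal order they are Skap2 (chr6:51857422-52012549, minus strand), Hotairm1 (chr6:52156902-52162119, plus strand), Hoxa2 (chr6:52162417-52164831), Hoxa3 (chr6:52169062-52213336), Hoxa4 (chr6:52189671-52191753), Hoxa5 (chr6:52201754-52204587), Hoxa6 (chr6:52206288-52208722) and Hoxa7 (chr6:52214491-52221854), the Hoxa genes all on the minus strand. The annotated exons of neighbouring genes overlap in this cluster, and whether reads were counted by strand is not given in the sources used here. No exon base of Skap2, Hoxa5 or Hoxa6 is shared with another gene. Hoxa7 shares 20.4% of its exon bases with the antisense gene Hoxaas3, and Hoxa3 shares 27.1%, Hoxa4 16.0% and Hoxa2 15% with other genes. Hotairm1 shares 43.1%. The partner of Hoxa2 is on its own strand and had 0 counts. How reads in shared stretches were treated is not given either. If strand was not used in counting, such reads may have been given to the wrong gene or left out.

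Upstream sequence from RefSeq (GRCm38.p6, minus strand, 5′ to 3′) was available for 6 of the 8 genes and is shown for a pair with a large left-right difference, Hoxa6 and Hoxa7, beside Hoxa5 with a small one and Hoxa2 with almost none. Each stretch ends before the RefSeq transcript start and leaves out every exon of the count table's annotation. For Hoxa7 that start, at 52218573, lies inside the gene's interval in the count table (chr6:52214491-52221854). The Hoxa7 stretch is thus within that interval, outside its exons, and not upstream of it. Capitals mark matches, on either strand, to 5 short motifs: TTTATG of Cdx factors, TGATNNAT of Pbx-Hox pairs, GACCACCCA of Gli factors, AGGTCA of retinoic acid receptors and the TATA box TATAAA.
Hoxa6 (chr6:52208723-52208922): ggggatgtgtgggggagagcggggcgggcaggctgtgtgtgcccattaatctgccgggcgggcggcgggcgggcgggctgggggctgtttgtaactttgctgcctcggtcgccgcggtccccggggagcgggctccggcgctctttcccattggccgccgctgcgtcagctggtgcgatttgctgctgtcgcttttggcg
Hoxa7 (chr6:52218712-52218823): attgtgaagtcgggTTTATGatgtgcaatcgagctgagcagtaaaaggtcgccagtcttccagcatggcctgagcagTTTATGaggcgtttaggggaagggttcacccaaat
Hoxa5 (chr6:52204588-52204837): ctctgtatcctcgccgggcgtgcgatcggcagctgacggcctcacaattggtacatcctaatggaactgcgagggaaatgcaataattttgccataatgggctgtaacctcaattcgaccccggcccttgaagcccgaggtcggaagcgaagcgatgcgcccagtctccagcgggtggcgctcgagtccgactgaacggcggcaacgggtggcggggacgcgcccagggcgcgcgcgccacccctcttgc
Hoxa2 (chr6:52164832-52165081): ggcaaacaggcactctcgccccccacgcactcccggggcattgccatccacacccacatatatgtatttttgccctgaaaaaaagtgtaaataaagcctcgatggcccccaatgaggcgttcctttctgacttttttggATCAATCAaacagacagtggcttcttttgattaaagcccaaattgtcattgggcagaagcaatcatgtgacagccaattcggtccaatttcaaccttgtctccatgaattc
The Hoxa7 stretch held the Cdx letters at 2 places, which 11.9% of 32851 RefSeq windows of 300 bases around a transcript start hold at least once. Hoxa2 held the Pbx-Hox letters once (8.85% of windows), and the stretches of Hoxa6 and Hoxa5 held none of the motifs, although AGGTCA occurs in the Hoxa5 window after its start (16.3% of windows). GC content of the stretches was 71% for Hoxa6, 63.6% for Hoxa5, 49.1% for Hoxa7 and 46.4% for Hoxa2. A match in letters is a description and not a binding site.

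Levels were compared between genes per kilobase of exon. Hoxa5 was the most abundant of the 8, at 136 to 217 CPM per kb over the 12 libraries, followed by Hoxa4 at 46.3 to 78.4 and Hoxa2 at 29.3 to 38.6, and these 3 ranges did not overlap. Hotairm1 (12.04 to 29.2 CPM per kb) and Hoxa6 (9.42 to 29.0) came next and overlapped each other. In wild type, Hoxa6 stood at 11.6 ± 2.02 CPM per kb on the left and 27.6 ± 1.35 on the right (SD, n = 3 each), against 14.7 ± 3.00 and 24.6 ± 4.48 for Hotairm1. Hoxa3 (9.25 to 13.0 CPM per kb) overlapped both of these and Skap2 (6.83 to 11.5), and Hoxa7 was the lowest, at 1.05 to 7.41, with its top in the range of Skap2. The 5′ genes of the cluster were at the edge of detection, with at most 10 counts in any library for Hoxa9, 4 for Hoxa10 and 6 for Hoxa13, and 0 counts of Hoxa11 in all 12 libraries. The level per length thus peaked at Hoxa5 and was more than an order of magnitude lower at Hoxa7.

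**Figure D1:**
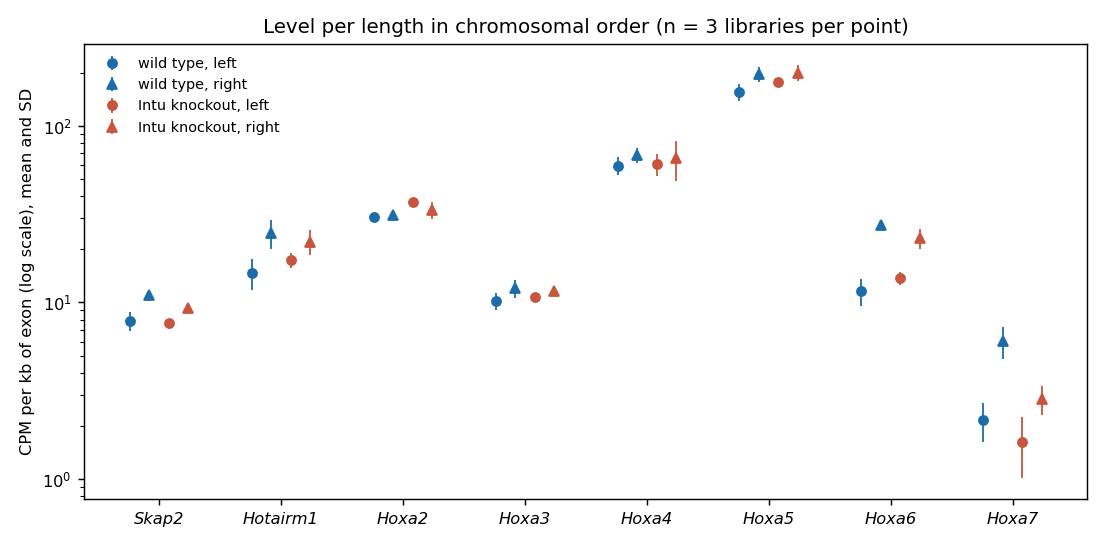
Level of the 8 genes in CPM per kb of exon on a log axis, in chromosomal order; points are means and bars SDs of 3 libraries, circles for left and triangles for right lung, blue for wild type and red for Intu knockout. Hoxa5 lies highest and Hoxa7 lowest. Right-lung triangles lie above left-lung circles in both genotypes for every gene except Hoxa2, where this holds in wild type only.

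Left and right lung were then set side by side in wild type. For each of the 8 genes the left library was the lower one in 3 of 3 pairs, a pattern held by 13.4% of all tested genes, and for 5 of them (Skap2, Hotairm1, Hoxa5, Hoxa6 and Hoxa7) the left and right libraries did not overlap (4.24% of tested genes were lower on the left without overlap). Because these genes were picked on this contrast, nothing is read from these counts. The median of the 8 log2 differences (left minus right) was -0.41, from -1.47 to -0.03, against 0.00 over all tested genes. By edgeR's quasi-likelihood test 0.0105% of tested genes were called between the sides in wild type and 0% in the knockout, where 358 genes had an unadjusted p below 0.05 and DESeq2 called 4. With pairs as a block edgeR called 0.662% and 0.452%.

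Hoxa6, a gene of the middle of the cluster that acts with Hoxa5 in patterning the axial skeleton, measured 11.7, 10.4 and 8.23 CPM in the left wild-type libraries number 1, 2 and 3 and at 25.3, 24.1 and 23.0 CPM in the right ones. The left libraries all lay far below the right ones, at 46.3%, 43.2% and 35.8% of their pair. The fitted log2 difference was -1.25 (SE 0.14). In the knockout Hoxa6 stood at 10.95, 12.2 and 12.8 CPM on the left and at 17.3, 22.3 and 20.8 CPM on the right. The sides again did not overlap, with the left at 63.4%, 54.7% and 61.5% of its pair and a log2 difference of -0.75 (SE 0.14).

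Hoxa7, the most 5′ of the genes and the last one in the cluster with appreciable counts, had the largest fitted difference of the 8. Its wild-type left libraries held 6.725, 7.46 and 4.49 CPM and the right ones 21.3, 15.5 and 15.02 CPM, so that the left was at 31.6%, 48.2% and 29.9% of the right, a log2 difference of -1.47 (SE 0.25). In the knockout the left libraries held 3.03, 6.52 and 4.43 CPM and the right ones 6.84, 9.79 and 7.71 CPM. These groups did not overlap either, although the highest left library came close to the lowest right one, and the log2 difference was -0.80 (SE 0.27). Hoxaas3, whose exons overlap those of Hoxa7 on the other strand, stood at 0.04 (SE 0.12) in wild type and -0.07 (SE 0.12) in the knockout.

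At the other end of the region Skap2 showed the same direction at a far higher count. Wild-type lungs held 90.0, 99.2 and 77.5 CPM on the left and 128, 131 and 116 CPM on the right, a log2 difference of -0.49 (SE 0.08). In the knockout it stood at 85.1, 86.4 and 88.0 CPM on the left and at 102.5, 105 and 108 CPM on the right (-0.28, SE 0.08). The sides did not overlap in either genotype, and the left was at 66.7% to 75.8% of its pair in wild type and at 81.4% to 83.0% in the knockout.

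Hotairm1, a long noncoding RNA transcribed from the 3′ end of the cluster, was found at 14.5, 18.4 and 12.3 CPM on the left and at 25.0, 29.95 and 20.8 CPM on the right in wild type (-0.74, SE 0.17). In the knockout it stood at 19.8, 16.6 and 16.9 CPM on the left and at 26.0, 18.8 and 23.2 CPM on the right (-0.35, SE 0.17). Its left library was the lower one in each of the 6 pairs, but in the knockout the 2 sides overlapped.

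The genes between these ends differed less. Hoxa5, the member with the best-known role in lung, had 312, 311 and 256 CPM on the left and 391, 389 and 327 CPM on the right in wild type, without overlap. The left was at 78.2% to 79.9% of its pair in wild type (-0.33, SE 0.10) and at 84.7% to 96.1% in the knockout (-0.18, SE 0.10), where the sides overlapped. Hoxa3 and Hoxa4, expressed in foregut and its derivatives, had differences of -0.24 (SE 0.09) and -0.20 (SE 0.16) in wild type and of -0.11 each in the knockout (SE 0.09 and 0.16), with overlapping sides in both genotypes. Hoxa2, best known from hindbrain and branchial arches, differed by -0.03 (SE 0.08) in wild type, where its left libraries were at 96.9% to 98.4% of their pair, and by 0.15 (SE 0.08) in the knockout. In the knockout 5 of the 8 genes (Skap2, Hotairm1, Hoxa5, Hoxa6 and Hoxa7) were lower on the left in 3 of 3 pairs (14.4% of tested genes), and 3 of 8 (Skap2, Hoxa6 and Hoxa7) had sides that did not overlap (4.21% of tested genes). The same 5 were lower on the left in 6 of 6 pairs (3.05% of tested genes).

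**Figure D2:**
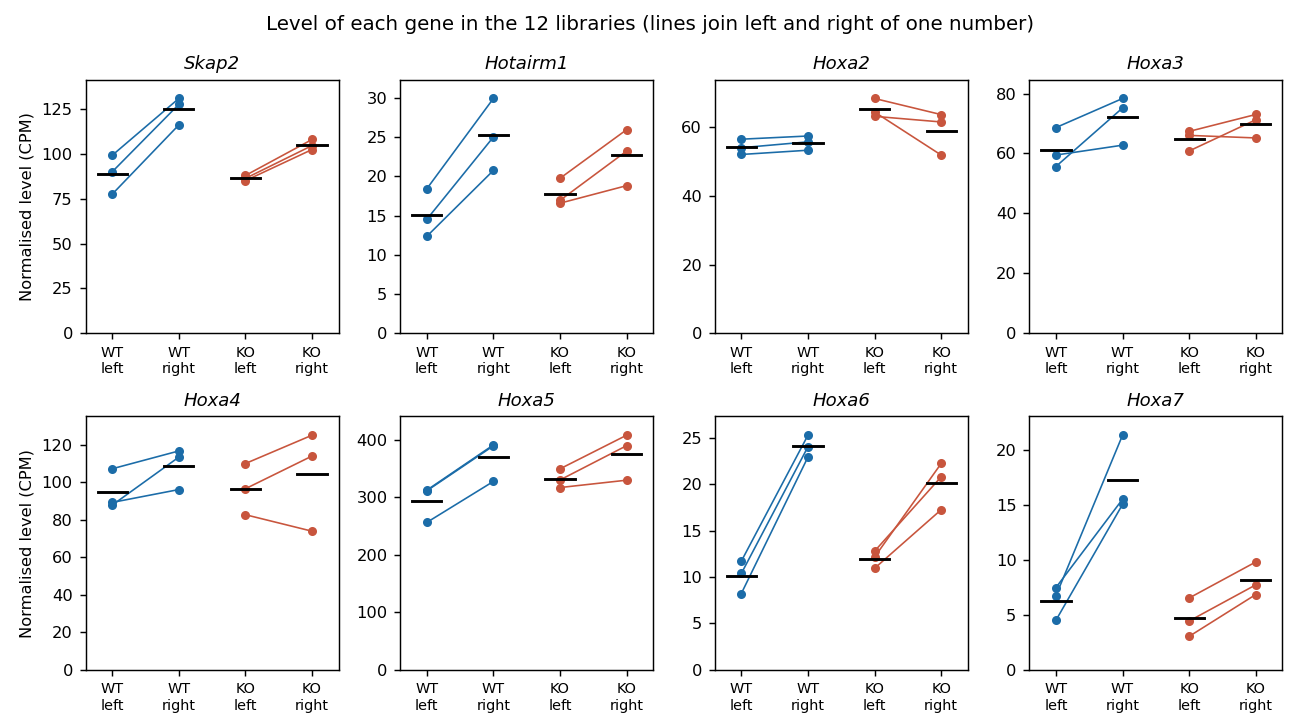
Normalised level (CPM, axis from 0) of each gene in the 12 libraries, by genotype and side; dots are libraries, thin lines join the left and right library of one pair and black bars are group means. For Hoxa6 the wild-type left dots lie at 8.23 to 11.7 CPM and the right ones at 23.0 to 25.3, while for Hoxa2 both sides lie at 52.1 to 57.5.

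The side difference did not change evenly along the chromosome. In wild type it was large at the 3′ end (Hotairm1, -0.74), near 0 at Hoxa2 (-0.03), between -0.20 and -0.33 from Hoxa3 to Hoxa5, and largest at Hoxa6 (-1.25) and Hoxa7 (-1.47). Besides the members, 7 tested transcripts of the cluster are described. Of these Hoxaas2, an antisense transcript next to Hoxa3, stood at -0.52 (SE 0.13) in wild type and -0.14 (SE 0.12) in the knockout, and the short gene models Gm27861 and Gm27477 beside Hotairm1 at -0.60 (SE 0.22) and -1.12 (SE 0.23) in wild type. Over these 7 transcripts the range was -1.12 to 0.11 in wild type and -0.60 to -0.07 in the knockout.

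Outside the cluster, within 1 Mb of its ends, 11 other genes were tested. The 5 beyond Skap2 ranged from -0.71 to 0.03 in wild type and from -0.14 to 0.07 in the knockout. The lowest of these was the nearest, Gm38811, whose mean level was 1.14 CPM on the left and 1.86 CPM on the right in wild type. The 6 beyond Hoxa13 ranged from -0.04 to 1.5 in wild type and from -0.05 to 1.17 in the knockout. The highest values belonged to the nearest genes, Evx1os (1.5, SE 0.72) and Evx1 (0.65, SE 0.57), a homeobox gene of posterior mesoderm and spinal cord, with group means of 0.349 to 1.69 CPM between them. The knockout left library number 1 held 3.13 CPM of Evx1 and 3.325 CPM of Evx1os. Every other knockout library held at most 1.17 CPM of either, so the knockout values of both genes rest largely on 1 library. Among the more distant genes Snx10 stood at -0.07 (SE 0.12) and Hibadh at -0.04 (SE 0.08) in wild type.

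**Figure D3:**
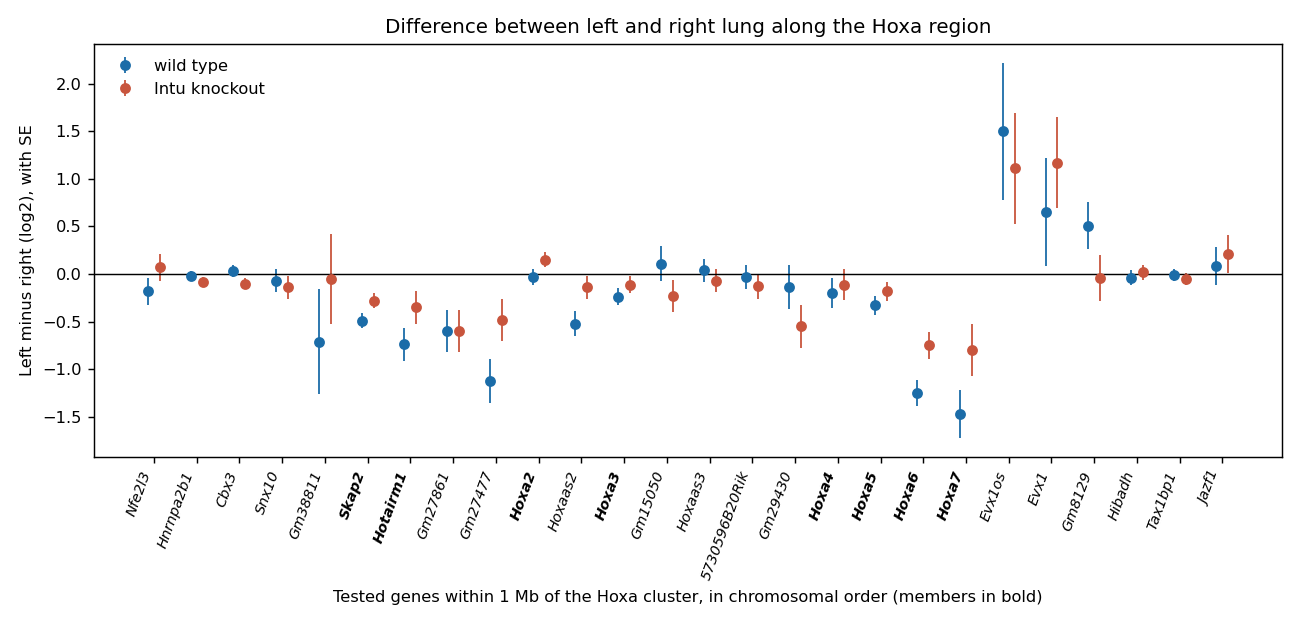
Left minus right difference (log2, fitted, with SE) of 26 tested genes within 1 Mb of the Hoxa cluster, in chromosomal order, in wild type (blue) and Intu knockout (red), with the 8 members in bold. Among the members, wild-type values are -0.49 at Skap2, -0.74 at Hotairm1, -0.03 at Hoxa2, and -1.25 and -1.47 at Hoxa6 and Hoxa7. Genes that are not members depart from this course, such as Gm38811 before Skap2 (-0.71) and Gm27477 beside Hoxa2 (-1.12).

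The fitted side difference was smaller in size in the knockout than in wild type for 7 of the 8 genes, all except Hoxa2, where it changed sign. The difference of the differences (knockout minus wild type) was 0.67 (SE 0.37) for Hoxa7, 0.51 (SE 0.19) for Hoxa6, 0.39 (SE 0.24) for Hotairm1, 0.21 (SE 0.11) for Skap2, 0.18 (SE 0.11) for Hoxa2, 0.15 (SE 0.14) for Hoxa5, 0.13 (SE 0.13) for Hoxa3 and 0.09 (SE 0.23) for Hoxa4. It is made of the same contrasts on which the genes were picked, so it was not tested.

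The comparison of genotypes asked whether these genes differed between knockout and wild-type libraries, which also differed in Xist. Over both sides, Hoxa7 was the 1 gene of the 8 that was called, lower in the knockout, against 5.7% of all tested genes called in either direction and 3.62% called lower. It held a lowest, median and highest level of 4.49, 11.2 and 21.3 CPM in the 6 wild-type libraries and 3.03, 6.68 and 9.79 CPM in the 6 knockout libraries. The ranges overlapped over both sides, with wild-type left libraries lying within the range of the knockout ones. The fitted log2 difference of Hoxa7 was -0.75, with an SE of 0.18 and an adjusted p of 0.0272 (edgeR, quasi-likelihood, 9519 genes). That fit left the pairs out and took the 6 libraries of a genotype as independent. Left and right libraries of a pair deviated together, and each genotype held only 3 pairs, so this adjusted p may be too low. The call was lost when left and right counts of each pair were summed (-0.88, adjusted p = 0.0972 in edgeR, with 1.46% of tested genes called) and when pairs entered limma-voom as a random effect (-0.76, adjusted p = 0.0519, with 3.61% called). It was also lost without any 1 of 7 libraries: wild-type left number 1 or 2, wild-type right number 1, and knockout left or right number 1 or 3 (adjusted p = 0.0512 to 0.0774).

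On each side alone, the wild-type libraries that served to pick the genes enter the comparison directly, so these values are a description without a test. In right lung Hoxa7 was at 17.3 ± 3.50 CPM in wild type and 8.11 ± 1.52 CPM in the knockout (SD, n = 3 each), a log2 difference of -1.09 (SE 0.24). In left lung it was at 6.23 ± 1.55 and 4.66 ± 1.75 CPM, a difference of -0.41 (SE 0.27). Whether the effect on Hoxa7 differs between the sides was not tested.

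The other 7 genes were not called over both sides. At an unadjusted p below 0.05 in edgeR were 3 of the 8 (Hoxa7, Hoxa2 and Skap2), as were 1875 of the 9519 tested genes. Hoxa2 was closest, at 54.9 ± 2.06 CPM in wild type and 62.3 ± 5.54 CPM in the knockout (SD, 6 libraries each), a difference of 0.18 (SE 0.05, adjusted p = 0.0758 in edgeR). It was called in 2 of 17 alternatives, among them the fit without the knockout right library number 2 (adjusted p = 0.0136 in edgeR), and had adjusted p of up to 0.243, with summed pairs. Skap2 stood at -0.14 (SE 0.06, adjusted p = 0.154 in edgeR). It was called in 1 of 17 alternatives, without the wild-type left library number 3 (adjusted p = 0.0368 in edgeR), and had adjusted p of up to 0.35, with summed pairs. Hoxa5 (0.10, SE 0.07), Hotairm1 (0.04, SE 0.12), Hoxa3 (0.02, SE 0.07), Hoxa6 (-0.01, SE 0.10) and Hoxa4 (-0.02, SE 0.11) had adjusted p of 0.438 or more in edgeR. The Hoxa6 difference was 0.24 (SE 0.14) on the left and -0.26 (SE 0.13) on the right. The median over the 8 genes was 0.00, as over all tested genes.

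**Figure D4:**
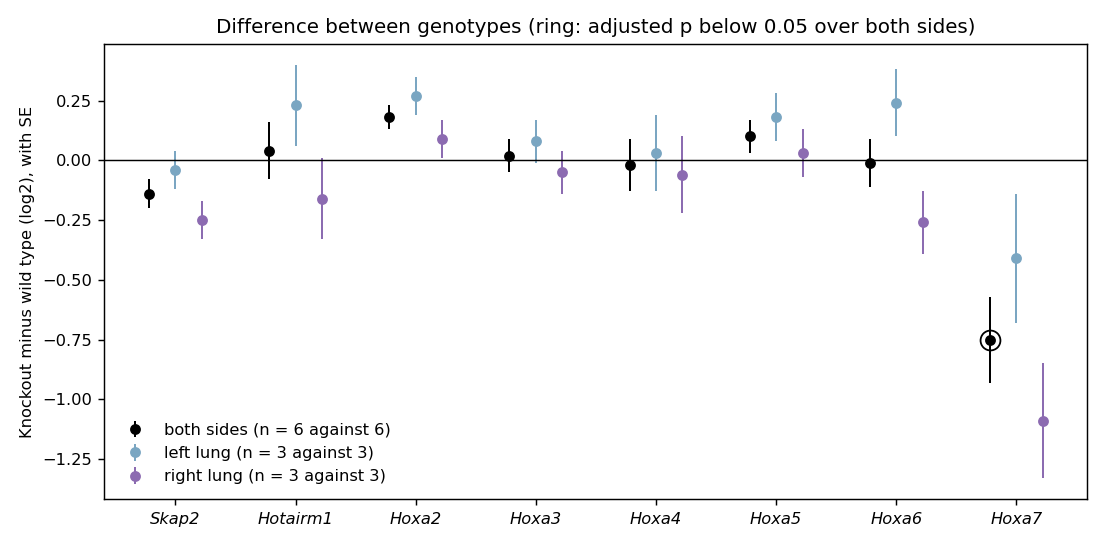
Knockout minus wild type (log2, fitted, with SE) for each gene over both sides (black), in left lung (light blue) and in right lung (purple); a ring marks adjusted p below 0.05 over both sides, the sides alone being untested. Hoxa7 stands at -0.75 over both sides and -1.09 on the right, and the other 7 genes lie between -0.26 and 0.27.

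The libraries of a group did not move all 8 genes together. The wild-type left library number 3 was the lowest of its group for 7 of the 8 genes, all except Hoxa2, where it was the highest, while 33.3% of all tested genes were lowest in that library. In the knockout right library number 2, 5 of the 8 genes (Hotairm1, Hoxa2, Hoxa3, Hoxa4 and Hoxa5) were the lowest of the group and Hoxa6 and Hoxa7 the highest (38.5% of tested genes were lowest there). Hoxa4 was at 73.8 CPM in that library against 125 and 114 CPM in the other two of the group, and Hoxa6 at 22.3 against 17.3 and 20.8 CPM.

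Other Hox genes, cofactors and regulators were counted from fixed lists over both sides of the genotype comparison. There edgeR called 5.7% of all tested genes. Of 11 genes of the list of other Hox and Evx genes in the table, 3 were tested and 1 was called, Hoxd8, which rose by 1.20 (SE 0.31, adjusted p = 0.04 in edgeR) from levels of 0.472 to 2.11 CPM in wild type. The Hoxd8 call was lost with summed pairs (adjusted p = 0.112 in edgeR). None of 6 tested TALE cofactors, the Pbx, Meis and Tgif proteins that bind DNA beside Hox proteins, was called by edgeR or DESeq2, 1 had an unadjusted p below 0.05, and the median was -0.01. Of 18 tested Polycomb and Trithorax genes, which keep Hox clusters silent or active, 1 was called, the X-linked demethylase gene Kdm6a (-0.33, SE 0.06, adjusted p = 0.00666 in edgeR), also lost with summed pairs (adjusted p = 0.0944 in edgeR). The median of that list was -0.04. Xist was lower in every knockout than in every wild-type library, so for Kdm6a genotype cannot be told apart from what goes with Xist. None of 7 tested retinoic acid genes, whose pathway switches on 3′ Hox genes, was called between genotypes by edgeR or DESeq2, although 2 had an unadjusted p below 0.05 (median 0.07). Between the sides this list had a median of -0.32 in wild type and -0.09 in the knockout, with Cyp26b1, which degrades retinoic acid, at -0.59 (SE 0.15) and -0.16 (SE 0.15).

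Markers of other cell types moved with genotype or side to some extent. Over both sides edgeR called 5.7% of all tested genes, and 3.62% lower in the knockout. All 6 tested autonomic neuron and neural crest genes (among them Stmn2, Phox2a and Hand2) and all 4 tested myeloid genes (among them C1qb and Spi1) were called lower. Single genes were called among the markers of mesenchyme (Col3a1, 0.19), epithelium (Elf3, 0.54) and mesothelium (Upk3b, -0.32), and 2 of heart muscle (Actc1, -1.7, and Myl2, 2.6). With summed pairs edgeR called 1.46% of all tested genes and kept the calls of Stmn2, Phox2a, Hand2 and Actc1, among others. Those of the 4 myeloid genes (adjusted p = 0.0616 to 0.0877), Elavl4, Ret, Col3a1, Elf3, Upk3b and Myl2 were lost. Summed neuronal markers stood at 47.0 ± 13.2 CPM in wild-type left, 56.9 ± 0.584 in wild-type right, 26.8 ± 2.26 in knockout left and 24.8 ± 2.21 CPM in knockout right lung (SD, n = 3 each). Heart muscle markers, of which 5 were in the table, stood at 59.8 ± 8.42, 73.9 ± 9.81, 30.1 ± 9.47 and 29.6 ± 7.19 CPM in the same order. Most of this sum was Actc1, at 52.1, 63.4, 18.5 and 16.9 CPM in that order. The other tested genes of the list differed between genotypes by 2.6 (Myl2), 0.48 (Tnni3, not called) and -0.12 (Tnnt2, not called). Erythroid markers were higher on the left, at 3170 ± 259.9 against 2291 ± 122 CPM in wild type and at 104% to 120% of the right in the 3 knockout pairs. Lower on the left in 3 of 3 wild-type pairs stood neuronal markers (56.8% to 98.9% of the right), heart muscle markers (76.3% to 84.5%) and mesothelium markers (81.7% to 95.3%). In the knockout pairs these lists stood at 107% to 108%, 88.2% to 114% and 97.1% to 105% of the right, in that order. The summed neural tube list was lower on the left in 3 of 3 knockout pairs (71.3% to 84.4%). Nearly all of that sum was Sox2, the 1 tested gene of the list (33.0 of 33.6 CPM in knockout left lung). Sox2 stood at -0.40 (SE 0.10) in the knockout, so the sum describes this gene and not a tissue. Liver markers reached 87.4 CPM in the knockout left library number 1 (1280% of its pair) and 9.82 CPM at most in the wild-type left ones. That library also held the highest levels of Evx1 and Evx1os and the lowest level of Hoxa7 (3.03 CPM) of the 12. The part of the cell type markers in the values of the Hoxa genes was not tested.

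The genes outside the region whose levels followed the mean profile of Hoxa6 and Hoxa7 most closely over the 12 libraries were found by Pearson's r on log2 CPM, as a description over libraries that share side, genotype and pairs. They were Bmp2 (r = 0.892), a BMP ligand, Galnt7 (0.881), an enzyme of O-linked glycosylation, Npnt (0.858), an extracellular ligand of integrin alpha 8, Jade1 (0.843), a subunit of a histone acetyltransferase complex, and D030025E07Rik (0.829), a noncoding transcript. The members were chosen on the side difference in the same libraries, so their own values are no comparison with these: r with the profile was 0.951 for Skap2, 0.703 for Hotairm1, 0.574 for Hoxa5, 0.521 for Hoxa3, 0.16 for Hoxa4 and -0.453 for Hoxa2. Bmp2 stood at 8.56 ± 0.497 CPM in wild-type left and 12.1 ± 1.504 CPM in wild-type right lung, and at 7.57 ± 0.293 and 10.3 ± 0.925 CPM in the knockout (SD, n = 3 each). D030025E07Rik was close to absent on the left, at 0.127 ± 0.110 CPM in wild type and 0.0326 ± 0.0565 CPM in the knockout, against 3.22 ± 1.07 and 2.26 ± 1.49 CPM on the right. Pearson's r takes no account of the size of a difference. Left minus right in wild type was -0.09 (SE 0.06) for Galnt7, -0.18 (SE 0.07) for Jade1 and -0.51 (SE 0.09) for Npnt. Hoxa6 and Hoxa7 stood at -1.25 and -1.47.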

How the data were processed

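The authors deposited raw counts per gene, without normalisation. FastQC, HISAT2 and featureCounts were used on GRCm38, per the submitters' processing notes; no version or strand setting is given in the sources used here. The last row of the table, on chromosome 8, was incomplete and was left out. Symbols were matched by ID for 30915 of 31078 genes (99.5%).

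The 9519 genes passing filterByExpr (minimum count 10, minimum total 15) were fitted with edgeR 4.0.16 in R 4.3.3 (glmQLFit and glmQLFTest, TMM factors 0.992 to 1.01) over 12 libraries in 4 groups, with Benjamini-Hochberg adjustment and a threshold of 0.05. This fit had no term for pairs and so took left and right libraries as independent. CPM used TMM-scaled library sizes, log2 CPM a prior count of 2, and levels per kilobase the deposited exon length. Alternatives were DESeq2 1.42.0, no filter, blocks by pair or number, a random effect of pairs (limma 3.58.1), summed pairs and leaving out each library.

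Replicates differed by more than sampling noise (chi-square over its degrees of freedom, 4.7 to 14.1). Left and right libraries of one number and genotype were treated as pairs because their deviations from group means correlated at 0.253 to 0.486 in all 6 cases, against -0.393 to -0.00284 for other numbers. This is a hint from the data. Across genotypes the same numbers correlated at -0.121 to -0.0416.

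Members and lists were chosen with earlier results of these data known. Named were the members, the tested cluster transcripts and nearest flanking genes, the 5 genes most like Hoxa6 and Hoxa7, up to 4 called genes of each list, and Intu and Gli1. Xist, Snx10, Hibadh, Cyp26b1, the examples of mesenchyme markers and the single libraries were named after their values were seen. Some genes are not reported here.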

Additional observations from a re-analysis of the deposited data

Results flagged for a closer look

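The pairs of Hoxa2 differed in sign between the 2 genotypes: its left level was the lower one in 3 of 3 wild-type pairs and higher on the left in 3 of 3 knockout pairs. The wild-type pairs differed by -0.04, -0.03 and -0.02 on the log2 scale and the knockout pairs by 0.10, 0.31 and 0.04. The knockout minus wild-type difference was 0.18 (SE 0.11), and it was not tested. In wild type the difference was close to 0 (-0.03, SE 0.08).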

How the results depend on the processing

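Over both sides 543 genes were called between genotypes, 1084 without the filter, 139 with summed pairs and 354 to 569 without 1 library. In left lung the count was 112, against 510 without the filter, 193 with DESeq2 and 45 to 137 without 1 library. In right lung it was 144, against 595, 224 and 68 to 175. Between the sides it was 1 in wild type and 0 in the knockout, against 46 and 31 without the filter, 11 and 4 with DESeq2, and 1 to 3 and 0 to 1 without 1 library. With pairing as a replicate block these rose to 63 and 43 between the sides, and the random effect of pairs gave 344 over both sides. Number as a block across genotypes gave 177 in left lung, and Hoxa2 was then called over both sides (adjusted p = 0.0475 in edgeR), but not with summed pairs (0.243) or the random effect of pairs (0.182). Same numbers did not deviate together across genotypes (r of -0.121 to -0.0416). The cause of these changes was not tested.

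Leaving out 1 library turned the sign of genotype differences near 0. Over both sides the ranges were -0.02 to 0.13 for Hotairm1, -0.03 to 0.06 for Hoxa3, -0.09 to 0.08 for Hoxa4 and -0.07 to 0.05 for Hoxa6. In left lung they were -0.13 to 0.05 for Skap2 and -0.08 to 0.13 for Hoxa4. In right lung they were -0.13 to 0.02 for Hoxa3, -0.21 to 0.14 for Hoxa4 and -0.05 to 0.11 for Hoxa5. The left minus right differences of the 8 genes were negative in 224 of 240 values over the alternatives run, from which nothing is read, since the genes were picked on that contrast.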
